A study of Danio rerio with 19 samples.

Results

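A pair of RNA-seq libraries tested what extra Edn1 does to the transcriptome of zebrafish pharyngeal arch cells. One library came from heat-shocked embryos with hspGal4 and UASEdn1, and the other from heat-shocked embryos with hspGal4 alone. These 2 libraries were taken from a series of 19 by their labels, 1 per genotype, so the comparison has no replicate check and no p-value is given for it. In both, cells positive for fli1a:GFP and for sox10:DsRed were sorted from the arches at 36 hpf (hours after fertilization), with all arch domains together. Both groups therefore share the 2 reporters, the Gal4 driver and the heat shock, and differ in the UASEdn1 transgene. The hsp70I promoter is induced by heat and acts throughout the embryo, so the driver does not limit Edn1 to arch cells. The time and temperature of the heat shock, the number of embryos pooled, and whether transgene carriers were clutch mates are not given in the sources used here. The same reporter sort from edn1-/- embryos (2 libraries) and from untreated wild-type embryos (WT, 3 libraries), all at 36 hpf, is used below, the WT libraries mainly to show how far libraries labelled alike lie apart. Mutant embryos were genotyped, per the labels. Values of 1 heat-shock NICD library, labelled hspNICD with the same 2 reporters at 36 hpf, are quoted beside the others in places. Wild-type libraries sorted for hand2 or dlx5a together with sox10, also at 36 hpf, enter only the fit of the edn1-/- comparison.

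Edn1 is a secreted peptide made by arch epithelium and mesoderm. It acts on endothelin type A receptors of the neural crest cells that fill the arches and sends its signal through Gq proteins. In fish and mouse embryos this pathway sets ventral (lower jaw) identity through Dlx, Hand and Msx genes, while Notch signalling through Jag1b opposes it dorsally. The fli1a and sox10 reporters together select these crest cells.

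Levels are TPM, rescaled so that each library sums to 1000000. Differences are log2(TPM + 1) in the Edn1 library minus the Gal4 library. A gene is called past the fold where this difference is at least 1 in size and the higher library has at least 10 TPM. The Edn1 library had 12870 genes at 1 TPM or more and the Gal4 library 12646, and the 10 most abundant genes took 28.5% of all TPM with Edn1 and 34.9% with Gal4. Sequencing depth is unknown, since TPM does not keep it. The sort was visible in both libraries: fli1a stood at 37.9 TPM with Edn1 and 31.8 TPM with Gal4, sox10 at 52.3 and 64.5 TPM, and the arch crest gene dlx2a at 1241 and 839 TPM. The vessel gene pecam1 was at 0.0674 TPM with Edn1 and 0.0264 TPM with Gal4, and flt1 at 0 and 0.0124 TPM. Other vessel genes were present: of 23 endothelial genes listed, 10 reached a mean of 1 TPM over the pair. The 23 summed to 175 TPM with Edn1 and 348 TPM with Gal4, mostly from the apelin receptor gene aplnra. The heat shock gene hspb1, for a small heat shock protein, stood at 62.2 TPM with Edn1 and 50.9 TPM with Gal4. It was at 1.51, 0.763 and 2.43 TPM in the unheated WT libraries. It is 1 gene of a list of 21, which summed to 20179 TPM with Edn1 and 18112 TPM with Gal4. That list summed to 17474, 12516 and 12062 TPM in WT and to 26129.5 and 14299 TPM in edn1-/-. Its sum therefore did not set the heat-shock pair apart from all other libraries.

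The transgene was read first. The Edn1 library held 20.9 TPM of edn1, and the Gal4 library 1.37 TPM (log2 difference 3.21, the largest increase of any gene past the fold). The 2 edn1-/- libraries held 0 and 0.246 TPM, and the 3 WT libraries 0.136, 0.428 and 0.549 TPM. Sorted arch crest thus carried little edn1 of its own, and the Gal4 library lay above every WT library while staying far below the Edn1 library. Reads from the transgene and from the gene itself cannot be told apart in this table.

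Among 12822 genes whose mean over the pair reached 1 TPM, 144 were higher (1.12%) and 77 lower (0.601%) past the fold, together 1.72% of the genes. The same rule applied to pairs of WT libraries called 10.7% (replicate 2 over 1), 8.83% (3 over 1) and 3.02% (3 over 2). Libraries labelled alike therefore differed at more genes than the heat-shock pair did. A stricter count asked for a difference larger than the range of the gene over the 3 WT libraries, and left 73 higher (0.569%) and 36 lower (0.281%) genes, together 0.850%. Without WT replicate 1 this count was 167, and without WT replicate 2 it was 189. Leaving a WT library out could only raise the count, since the range cannot widen. The median gene lay at 0.19, so the split between higher and lower rests on scaling: rescaling by the median of ratios gave 70 higher and 126 lower, and quantile normalization gave 81 and 115. List medians are therefore given relative to the median gene. Counts of list members past the fold are to be read beside the 1.12% higher and 0.601% lower of all genes. In all, 52 genes lay just short of the fold (between 0.9 and 1) and 48 just past it (up to 1.1).

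**Figure D1:**
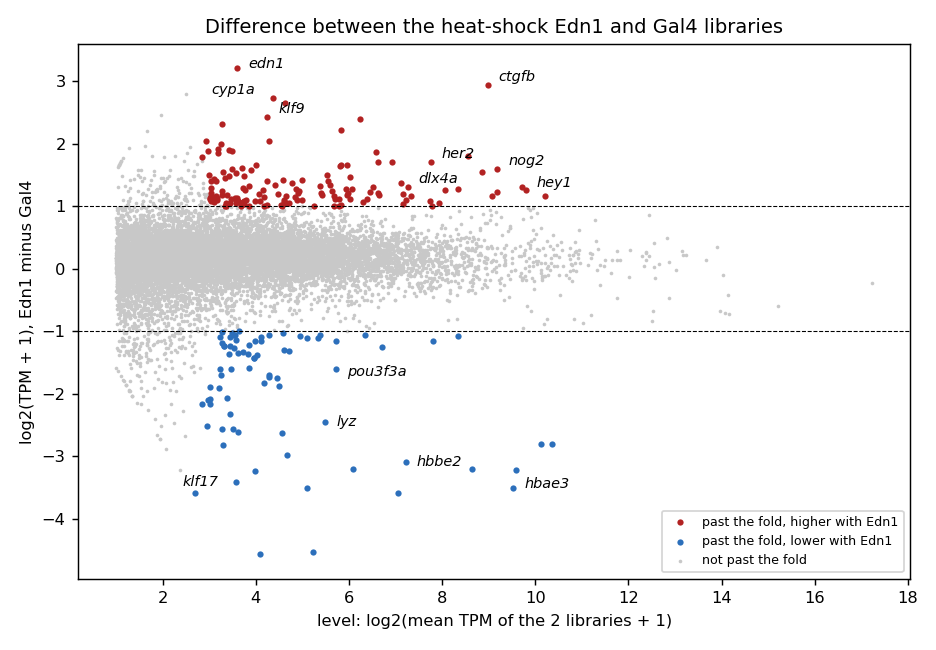
Each point is 1 of 12822 genes, with its level in the heat-shock pair on the horizontal axis and the log2 difference, Edn1 minus Gal4, on the vertical axis; dashed lines mark a difference of 1 in either direction. The 144 red and 77 blue genes are past the fold, with edn1 (3.21) and ctgfb (2.95) at the top and the globin gene hbbe2 (-3.09) among the lowest.

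The called genes were placed against WT as a description only, since the levels that placed them are the levels that called them. Of the 144 higher genes, the Edn1 library lay above all 3 WT libraries at 78 (54.2%), against 22.8% of all genes with at least 10 TPM in the higher library. The Gal4 library lay below all WT libraries at 67 of them (46.5%), against 44.6% of all such genes. Of the 77 lower genes, the Edn1 library lay below all WT libraries at 31 (40.3%, against 26.0% of all such genes) and the Gal4 library above them at 38 (49.4%, against 10.2%). A gene called for a difference between the 2 libraries is more likely to lie outside WT in one of them, so nothing is read from these shares.

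The receptor genes ednraa and ednrab were within the fold, while genes for processing and effectors were too low to be called. The receptor gene ednraa had 64.3 TPM with Edn1 and 43.5 TPM with Gal4, and 70.5, 66.6 and 66.5 TPM in the WT libraries. Its paralog ednrab had 53.3 and 70.9 TPM in the Edn1 and Gal4 libraries, both above the 12.9 to 21.1 TPM of the WT libraries. The type B receptor gene ednrba was near 1 TPM (1.84 with Edn1, 0.781 with Gal4). Of 6 tested genes for processing and effectors, 0 were past the fold and the median lay at -0.04 relative to the median gene. They include ece1, the converting enzyme that releases active endothelin (1.31 and 1.26 TPM), furina, a proprotein convertase (1.81 and 1.34 TPM), gnaq, a Gq subunit (1.05 and 0.977 TPM), and mef2ca, a transcription factor that acts downstream of Edn1 in the zebrafish arches (2.83 and 1.57 TPM, log2 0.57). The other ligands were low, with edn2 at 1.41 and 2.65 TPM and edn3b near 0.

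The ventral Dlx genes, homeobox genes that respond to Edn1, were all higher in the Edn1 library. The gene dlx4b stood at 129 TPM with Edn1 and 51.6 TPM with Gal4 (log2 1.31), and at 59.8, 83.9 and 65.3 TPM in WT. Its neighbour dlx4a stood at 218 TPM with Edn1 and 87.2 TPM with Gal4 (log2 1.31), and at 74.2, 166 and 111 TPM in WT. Both were past the fold and past the WT range, with the Edn1 library above every WT library. The gene dlx5a was just short of the fold, with 1220.2 TPM against 623 TPM (log2 0.97), and its difference still exceeded the WT range of 0.69. The genes dlx3b (608 TPM with Edn1, 329 TPM with Gal4, log2 0.88) and dlx6a (11.1 and 5.97 TPM, log2 0.79) were higher too, by less than the range over WT. In the Edn1 library all 5 of these genes lay above all 3 WT libraries, while the Gal4 library lay inside the WT range for dlx3b, dlx4a, dlx5a and dlx6a and below it for dlx4b.

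The same Dlx genes were low in edn1 mutants. In the 2 edn1-/- libraries dlx4b was at 2.91 and 2.94 TPM, against the 59.8, 83.9 and 65.3 TPM of the WT libraries. At an unadjusted p under 0.05 in limma, only 199 of 13206 genes (1.51%) were lower and 169 (1.28%) higher in the mutant. With Benjamini-Hochberg adjustment, dlx4b was the only gene that passed the test (0.00757%, log2 -4.16, SE 0.23, limma, adjusted p = 0.00606). That call was lost without edn1-/- replicate 2 (limma, adjusted p = 0.161) and without WT replicate 3 (limma, adjusted p = 0.0871). The genes dlx4a (5.22 and 7.40 TPM), dlx3b (7.18 and 23.5 TPM), dlx5a (209 and 249 TPM) and dlx6a (0.392 and 1.14 TPM) were below every WT library in both mutant libraries without passing that test. Under heat-shock NICD, the active Notch receptor fragment, the same 5 genes were low as well, between 0.948 TPM (dlx6a) and 105 TPM (dlx5a). That library shares its Gal4 control with the Edn1 library, so its values only stand beside them.

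**Figure D2:**
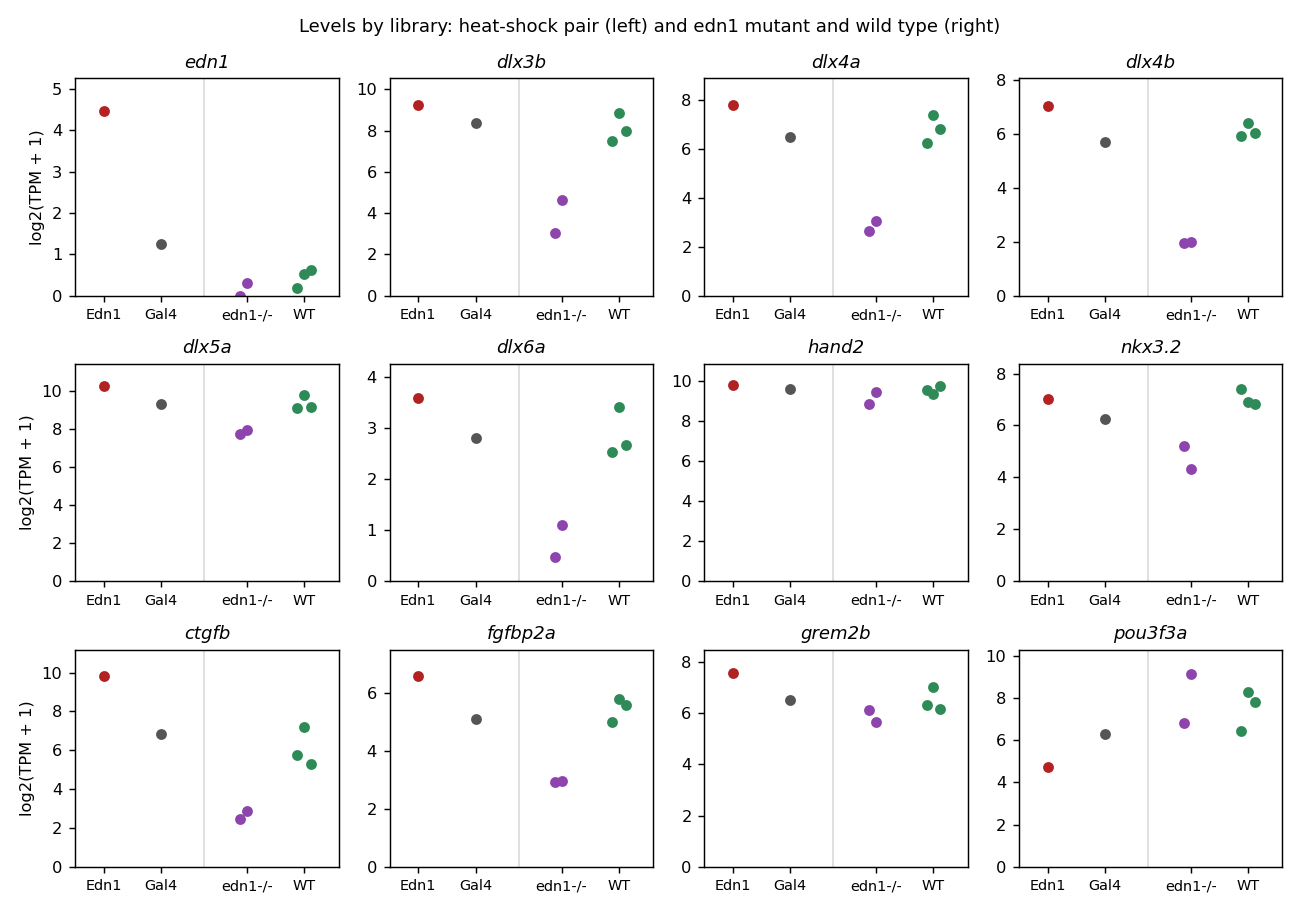
Level of 12 genes, log2(TPM + 1), in the heat-shock Edn1 and Gal4 libraries (1 each) and in the edn1-/- (2) and WT (3) libraries; each point is 1 library. For dlx4a and dlx4b the Edn1 library is above all others and both mutant libraries are below all others, while hand2 differs little within the heat-shock pair.

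The other ventral genes stayed within the fold. The gene hand2, a basic helix-loop-helix factor of the ventral arch, had 887 TPM with Edn1 and 769 TPM with Gal4 (log2 0.21), at 729, 639 and 856 TPM in WT. The homeobox gene msxe had 95.8 and 73.2 TPM in the Edn1 and Gal4 libraries (log2 0.38). The gene gsc, a homeobox gene of the arches, was lower, at 55.3 and 71.5 TPM (log2 -0.36). The related genes msxb (log2 -0.43), msxc (-0.31) and msxd (-0.14), and the pan-arch genes dlx1a (0.49) and dlx2a (0.56), stayed within the fold. Of 13 ventral genes tested, 2 were past the fold, both higher, where 1.12% of all genes were. A positive difference was found at 11 of the 13, where 9473 of all 12822 genes had one. Of the 13, 10 lay above the median gene. Their median lay 0.19 above the median gene. Because the list was built around genes known from edn1 mutants, its direction is not independent evidence.

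Genes of the jaw joint and the intermediate arch showed smaller differences. The BMP antagonist gene grem2b stood at 190.1 TPM with Edn1 and 91.7 TPM with Gal4 (log2 1.04), and at 79.8, 128 and 71.5 TPM in WT; it was past the fold and the WT range, but had 0.81 after median-of-ratios rescaling. In edn1-/- it had 68.8 and 49.8 TPM, below all WT libraries. The joint gene nkx3.2 had 128 TPM with Edn1 and 74.9 TPM with Gal4 (log2 0.77), where edn1-/- libraries had 36.3 and 19 TPM and WT libraries 169, 119 and 114 TPM. In that gene the Gal4 library was below the WT values and the Edn1 library among them. The homeobox genes barx1 (468 and 400.4 TPM) and emx2 (214 and 159 TPM) and the Iroquois gene irx7 (23.4 and 19.8 TPM) differed by 0.43 or less. Of 9 genes tested in this list, 1 was past the fold, and higher, where 1.12% of all genes were.

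Dorsal genes split. The POU homeobox gene pou3f3a, which marks dorsal arch crest, was at 25.2 TPM with Edn1 and 78.1 TPM with Gal4 (log2 -1.60). The WT libraries held 84.3, 306 and 222 TPM of it, so both heat-shock libraries were below all of them, and the WT range of 1.85 was wider than the difference. Its paralog pou3f3b was lower as well, at 200.2 and 355 TPM (log2 -0.82), with 989 and 1182 TPM in edn1-/- and 392, 826 and 539 TPM in WT, so again both heat-shock libraries were below WT. Other dorsal genes were mixed. Of the 14 tested, 7 had a positive difference, where 9473 of all 12822 genes did, and 5 lay above the median gene. The receptor gene ednrab, given above, belongs to this list and was lower with Edn1. The Notch ligand gene jag1b had 30.2 and 33.8 TPM (log2 -0.16). The nuclear receptor genes nr2f1a (log2 0.17), nr2f1b (0.40), nr2f2 (0.12) and nr2f5 (0.29) lay between 0.12 and 0.40, and nr2f6b was higher past the fold, at 85.2 TPM with Edn1 and 36.7 TPM with Gal4 (log2 1.19, or 0.96 after median-of-ratios rescaling). The ligand gene fgf20b had 38.7 and 23.6 TPM (log2 0.69). In all, 1 of 14 dorsal genes was higher and 1 lower past the fold, where 1.12% and 0.601% of all genes were. Of these called genes 0 exceeded the WT range, nr2f6b included, where 0.850% of all genes were called and did. The median lay at -0.21 relative to the median gene.

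Hox genes, which give position along the body axis, mostly had negative differences. Of 15 tested in the list, 2 had a positive difference, where 9473 of all 12822 genes did, and 2 were past the fold, both lower, where 0.601% of all genes were: hoxb8a stood at 8.02 TPM with Edn1 and 22.3 TPM with Gal4 (log2 -1.37), and hoxb5a at 14.8 and 31.3 TPM (log2 -1.03). The WT libraries held 4.83, 11.0 and 7.34 TPM of hoxb8a, so there the Gal4 library was the one outside WT. They held 31.8, 21.0 and 61.6 TPM of hoxb5a, where the Edn1 library was the one outside. Over the 15 genes, the Gal4 library lay above all WT libraries at 7, where 1613 of all 12822 genes did. The Edn1 library lay below all WT libraries at 3, where 3445 of all genes did. A Hox gene that is not in the list, hoxb5b, was lower past the fold too, at 24.6 TPM with Edn1 and 53.7 TPM with Gal4 (log2 -1.10), with 37.1, 26.1 and 63.0 TPM in WT; it was picked after its values were seen. The Hox median lay at -0.53 relative to the median gene. Hox genes of the second arch and hindbrain differed less, with hoxa2b at 124 and 129 TPM and hoxb2a at 123 and 106 TPM. Of 7 frontonasal and maxillary genes, 0 were past the fold, and their median lay at -0.74. The homeobox genes lhx6 (16.8 and 24.9 TPM) and lhx8a (15.7 and 23.9 TPM) were below all 3 WT libraries in both heat-shock libraries.

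Among Notch pathway genes, 3 of 21 tested were past the fold, all higher, where 1.12% of all genes were. The gene nrarpb, a feedback inhibitor of Notch, stood at 84.9 TPM with Edn1 and 26.0 TPM with Gal4 (log2 1.67), and at 29.0, 43.6 and 48.8 TPM in WT, and it alone of the 3 exceeded the WT range. The hairy-related repressor genes her2 (329.6 and 100.3 TPM, log2 1.71) and hey1 (1254 and 522 TPM, log2 1.26) varied over WT by 2.57 and 2.34. This list's median lay 0.23 above the median gene. In the NICD library these genes were higher still (nrarpb 282 TPM, her2 868 TPM, hey1 1842 TPM). The receptor gene notch1a had 5.07 TPM with Edn1 and 4.30 TPM with Gal4.

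In the other signalling lists few members were past the fold. Of 19 BMP genes, nog2, which encodes a secreted BMP antagonist, was higher (875 TPM with Edn1, 288 TPM with Gal4, log2 1.60), beside grem2b. The edn1-/- libraries held 25.9 and 127 TPM of nog2 and the WT libraries 117, 375 and 229 TPM. The nog2 difference did not exceed its WT range. The BMP target gene id1 had 7216 and 3949.8 TPM (log2 0.87) and id3 825 and 541 TPM (log2 0.61). Of 12 FGF feedback and Ets genes, 0 were past the fold, with dusp6 at 604 and 363 TPM (log2 0.73) and spry4 at 419.7 and 254 TPM (log2 0.72). Of 13 Wnt genes, notum1a, which encodes an enzyme that inactivates Wnt ligands, was higher. It had 13.9 TPM with Edn1 and 4.41 TPM with Gal4 (log2 1.46), against a narrow 8.56 to 9.57 TPM in WT, so the Edn1 library was above and the Gal4 library below WT. Of 10 retinoic acid genes, the binding protein gene crabp2b was higher (223 and 99.1 TPM, log2 1.16, or 0.92 after median-of-ratios rescaling), with the Gal4 library below the WT values of 152, 181 and 142 TPM. Of 4 Hedgehog target genes, 0 were past the fold.

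Skeletal genes lay above the median gene as a list, by 0.41, with 1 of 11 higher past the fold, where 1.12% of all genes were. This was hapln1a, which encodes a link protein of cartilage matrix, at 748 TPM with Edn1 and 333 TPM with Gal4 (log2 1.17, or 0.93 after median-of-ratios rescaling). The WT libraries held 658, 816 and 644 TPM, so the Edn1 library lay within WT and the Gal4 library below it. The chondrocyte regulator sox9a had 22.8 and 14.7 TPM, against 25.4, 203 and 215 TPM in WT, so both were below WT. Of 16 genes of arch crest identity, 0 were past the fold, where 1.72% of all genes were, so this count says little. Their median lay at -0.05 relative to the median gene. The list holds twist1a at 811 and 900.4 TPM, prrx1b at 198 and 219 TPM and pdgfra at 64.9 and 50.4 TPM. It also holds dlx2a, given above, which differed more. Of 8 Fox genes of the arches, 0 were past the fold, and their median lay at -0.03.

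**Figure D3:**
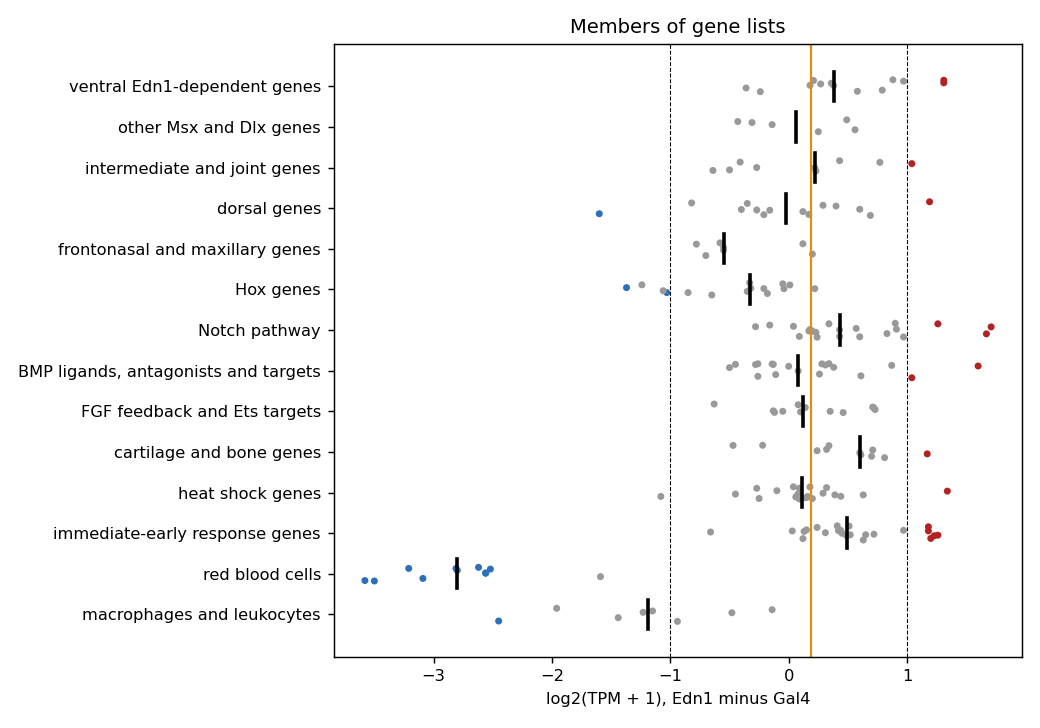
Log2 difference, Edn1 minus Gal4, of the tested members of 14 gene lists; each point is 1 gene, red or blue where past the fold, black bars are list medians and the orange line is the median of all genes (0.19). The red blood cell list (median -2.80) lies farthest from that line, and the ventral list holds its 2 red points at 1.31.

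Beyond the lists, the largest increases after edn1 were led by ctgfb, a gene for a secreted matricellular protein. It had 895 TPM with Edn1 and 115 TPM with Gal4 (log2 2.95). The edn1-/- libraries held 4.53 and 6.37 TPM and the WT libraries 53.6, 147 and 38.2 TPM (log2 -3.42, not past the test). Its level in the Edn1 library was above every other library named here, and its level in both mutant libraries was below all WT libraries. The gene klf9, a Kruppel-like transcription factor, had 31.0 TPM with Edn1 and 4.95 TPM with Gal4 (log2 2.43). In WT it had 9.70, 18.9 and 7.18 TPM, so both heat-shock libraries lay outside WT, on opposite sides. The cytochrome gene cyp1a stood at 35.0 and 4.38 TPM (log2 2.74), with a WT library as high as 30.4 TPM. The sterol synthesis gene cyp51 had 11.3 and 2.00 TPM (log2 2.04), where WT libraries had 2.89, 1.74 and 1.61 TPM. The gene insig1, a regulator of sterol synthesis, had 93.2 and 28.5 TPM (log2 1.67). The aldolase gene aldoab had 16.0 and 3.53 TPM (log2 1.91), within the WT values of 7.31, 7.23 and 24.0 TPM for Edn1 and below them for Gal4. The remaining genes of this kind were low: cpn1, for a carboxypeptidase (14.3 and 2.83 TPM), serpinb1l2, of the serine protease inhibitor family (11.4 and 2.33 TPM), ppapdc3 (16.6 and 3.77 TPM) and apof, an apolipoprotein gene (23.4 and 6.66 TPM), with differences from 1.67 to 2.00.

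Genes higher with Edn1 were set against the mutant libraries, which share no sample with the heat-shock pair. Of 143 higher genes tested in both comparisons, 27 (18.9%) had both edn1-/- libraries below all 3 WT libraries, where 4.58% of all genes did, or 3.64% of genes with at least 10 TPM in the higher heat-shock library. The opposite pattern, with both mutant libraries above WT, was found at 5 of all 144 higher genes (3.47%). Of all genes tested in both comparisons, 9.88% showed it. Among all 77 lower genes, of which 73 were tested in both comparisons, 5 (6.49% of the 77) had both mutant libraries above WT. The same held for 9.88% of all genes tested in both, or 9.46% of those with at least 10 TPM. Over the higher genes the median difference between mutant and WT was -0.34. Over the lower genes it was -0.32, so these medians do not separate the directions. The 27 genes included dlx4a, dlx4b, ctgfb, klf9, grem2b, notum1a and aldoab. Also among them were 2 genes chosen after their values were seen: fgfbp2a, for an FGF-binding protein (94.9 TPM with Edn1 and 33.7 TPM with Gal4; 6.71 and 6.76 TPM in edn1-/- against 31.3, 54.5 and 47.2 TPM in WT) and mych, a Myc family gene (689 and 234 TPM; 76.4 and 132 TPM against 164, 541 and 216 TPM). Without WT replicate 1 the count was 61 of 143, where 23.9% of all genes showed the pattern, without edn1-/- replicate 1 it was 42, where 12.8% did, and without edn1-/- replicate 2 it was 67, where 28.8% did. Another of the 27 was fosl1a, an immediate-early gene.

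**Figure D4:**
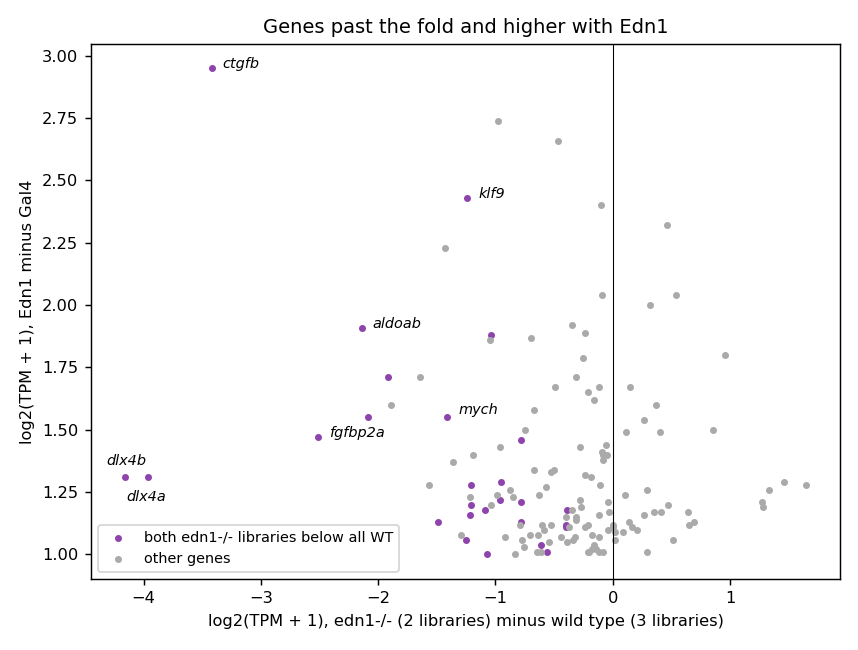
The 143 genes that were higher past the fold with Edn1 and were tested in both comparisons, with the log2 difference between edn1-/- and WT on the horizontal axis and that between Edn1 and Gal4 on the vertical axis. Purple points are the 27 genes with both mutant libraries below all WT libraries; dlx4b and dlx4a lie farthest left and ctgfb highest.

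Genes that answer stress and cell dissociation were examined as 3 lists. Of 23 immediate-early genes, 22 had a positive difference, where 9473 of all 12822 genes did, and 5 were past the fold, all higher, where 1.12% of all genes were: klf6a (377 TPM with Edn1, 157 TPM with Gal4, log2 1.26), socs3a (121 and 50.9 TPM, log2 1.23), gadd45bb (199.8 and 86.2 TPM), fosl1a (137 and 60.1 TPM) and klf2b (58.2 and 25.2 TPM). Of these 5 genes, 1 differed by more than its range over WT. After median-of-ratios rescaling klf6a (1.02) stayed past the fold, while socs3a, gadd45bb, fosl1a and klf2b did not. The list summed to 30268 TPM with Edn1 and 22716 TPM with Gal4, both below the 32032 to 43736 TPM of the WT libraries, and its median lay 0.30 above the median gene. Its part in the other increases was not tested. Of 21 heat shock genes, 1 was higher past the fold, where 1.12% of all genes were. This was the co-chaperone gene bag3 (29.5 and 11.0 TPM, log2 1.34). The heat shock list median lay at -0.08 relative to the median gene. Of 13 p53 target genes, gadd45aa alone was past the fold, and lower (6.42 and 15.3 TPM, log2 -1.14), where 0.601% of all genes were. The p53 list median lay at -0.06. Of 26 cell cycle genes, 0 were past the fold.

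Genes of red blood cells were lower with Edn1. Of 11 tested, 10 were past the fold and lower, where 0.601% of all genes were, 3 of them by more than the WT range, and the median lay at -2.99 relative to the median gene. The globin gene hbbe2 had 30.4 TPM with Edn1 and 265 TPM with Gal4 (log2 -3.09), with 8.86, 75.7 and 8.59 TPM in WT. The erythroid regulator gata1a had 1.28 and 12.1 TPM (log2 -2.52). The list summed to 866 TPM with Edn1 and 6932 TPM with Gal4, inside the range of the WT libraries, which held 572, 11069 and 1239 TPM. Globin genes are near-identical copies, so their single values are uncertain. The leukocyte list had a median of -1.38 relative to the median gene. In it 1 of 8 was lower past the fold, where 0.601% of all genes were: the lysozyme gene lyz (12.9 and 74.9 TPM, log2 -2.45). That list summed to 22.0 TPM with Edn1 and 102 TPM with Gal4, with 55.2, 299 and 1646 TPM in WT. In sorted bulk cells, fewer cells of a type and less RNA per cell cannot be told apart. The part of these lists in the other differences was not tested. With globin genes left out of the totals, 138 genes were higher and 70 lower.

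The lower genes past the WT range included genes outside the red blood cell list. That list does not hold every blood gene, hbae1 among those left out, so a gene outside it may still belong to blood cells. Besides the globin genes hbbe1.1, hbae1 and hbbe2 and the blood regulator gata1a, those with a symbol included klf17, a Kruppel-like factor (1.06 TPM with Edn1, 20.9 TPM with Gal4, log2 -3.41), IFITM3, an interferon-induced membrane protein gene (1.45 and 16.3 TPM), and guca2b, a guanylate cyclase activator gene (2.46 and 20.2 TPM). For each of these 3 genes the Gal4 library was above all WT libraries. The chemokine gene ccl38a.5 was listed at 0 in the Edn1 library, in all WT and mutant libraries and in the NICD library, and at 10.9 TPM in the Gal4 library. Smaller decreases were found for npb, a neuropeptide gene (8.63 and 34.2 TPM, log2 -1.87), blf (6.90 and 27.1 TPM), ZNF830 (8.13 and 28.6 TPM) and slc32a1, a vesicular transporter gene of inhibitory neurons (4.51 and 15.7 TPM). Of these 4, npb and ZNF830 were below all WT libraries in the Edn1 library.

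Markers of other cell types were compared for the whole lists. Endothelial genes summed to 175 TPM with Edn1 and 348 TPM with Gal4, most of it the apelin receptor gene aplnra (138 and 307 TPM). That gene alone of 10 tested members was past the fold, and lower, where 0.601% of all genes were. Pigment cell genes summed to 145 and 84.7 TPM, crest progenitor and glial genes to 226 and 291 TPM, neuronal genes to 361 and 418 TPM, epithelial genes to 3390.0 and 2619 TPM and otic genes to 35.3 and 28.0 TPM. In these 5 lists 0 members were past the fold. The epithelial sum is mostly krt8 (1715 and 1277 TPM) and krt18 (1399 and 1021 TPM). A positive difference was found at 4 of 11 tested epithelial members, where 9473 of all 12822 genes had one. The epithelial list median lay at -0.65 relative to the median gene. Skeletal muscle genes summed to 138 and 105 TPM, with acta1a past the fold (22.0 and 9.87 TPM). Heart genes summed to 2.86 and 1.3 TPM. Mural cell genes summed to 706 and 406 TPM, most of it foxc1b, which arch crest expresses as well (661 and 382 TPM).

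**Figure D5:**
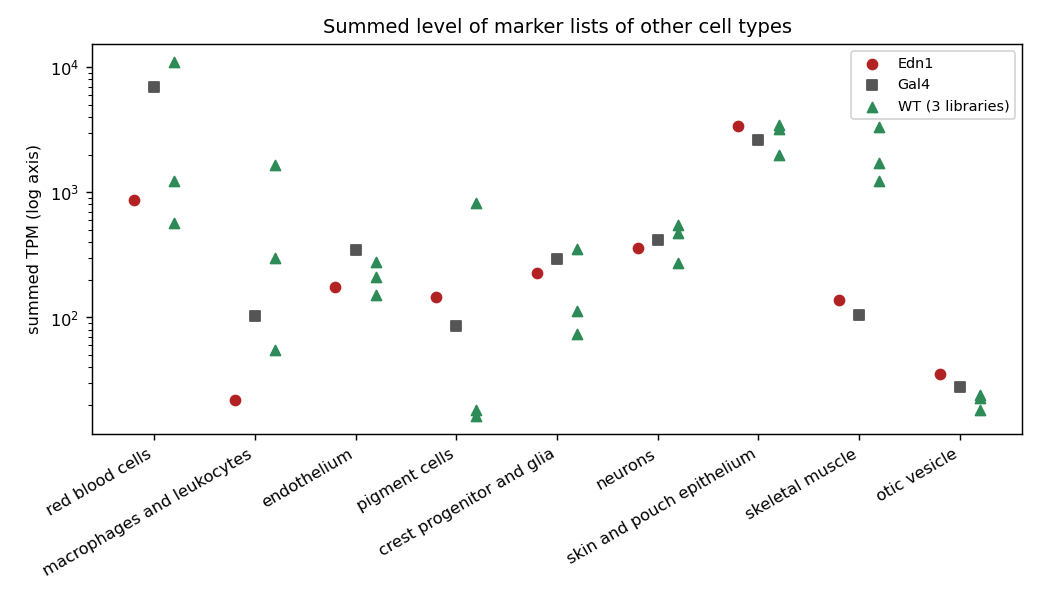
Summed TPM of 9 marker lists (log axis) in the heat-shock Edn1 library (circle), the Gal4 library (square) and the 3 WT libraries (triangles). Red blood cell markers (866 TPM with Edn1, 6932 TPM with Gal4) and leukocyte markers (22.0 and 102 TPM) differ most within the pair, and both vary widely over WT.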

How the data were processed

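RNA was measured by sequencing in sorted zebrafish cells. Per the labels' protocols, cDNA came from a SMARTer kit, and paired ends were read on 2 Illumina platforms. The platform of each library was not used here. The submitters' processing notes name GRCz10, TopHat2 and Partek, without versions. The table deposited by the authors holds TPM for 31953 genes in 19 columns, all matched by name. Each column sums to 93168, so values were multiplied by 10.73 to reach 1000000. Spreadsheet-damaged names were found for 19 genes and 18 were recovered by gene identifier. Of the identifiers, 26121 (81.7%) were in a reference table of names. List members are counted by gene identifier, since some names occur more than once. Differences used a pseudocount of 1, which understates changes of low genes. The edn1-/- comparison was fitted with limma 3.58.1 in R 4.3.3 on log2(TPM + 1) over the edn1-/-, WT, hand2-sorted and dlx5a-sorted libraries (trend, robust, 2-sided, Benjamini-Hochberg threshold 0.05). The dlx5a group is 1 library and was assumed to vary like the others. The labels do not tie replicates to clutches or embryos, so p-values may reflect technical spread. Scripts were checked on simulated data. Members, lists and tests were chosen with earlier results of these data known. Genes named outside the lists are the 12 largest changes in each direction with a symbol that exceeded the WT range. Exceptions are the genes marked in the text as picked by their values. Alternatives covered pseudocount, minimum level, scaling, fold, left-out libraries and a replicate block. No sequences are shown.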

Additional observations from a re-analysis of the deposited data

How the results depend on the processing

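With 1 library per heat-shock group, nothing can be left out or paired there, and depth limits cannot be given for TPM. The 221 genes past the fold became 135 with a pseudocount of 5, 530 with no minimum level, 73 with a minimum of 50 TPM, 38 on the deposited scale, 756 at 1.5-fold and 68 at 3-fold. On the deposited scale the same TPM limits and pseudocount are 10.73 times as large relative to the values. Under each alternative that recomputed the single genes, 0 of the 221 changed sign. That count could hardly have come out otherwise. Pseudocount, minimum level and a common scale cannot reverse a sign. The other scalings moved the median gene only from 0.19 to 0.18, -0.01 or 0.03, against differences of at least 1. After median-of-ratios rescaling 146 of them stayed past the fold, and after quantile normalization 156. The 109 genes past the WT range became 310 with no minimum level, 35 with a minimum of 50 TPM and 15 on the deposited scale, and 134 to 189 with a WT library left out. List members past the fold numbered 35, or 18 on the deposited scale. WT pairs gave 409 to 1404 genes (middle value 1171). The edn1-/- fit called 1 gene, dlx4b, or 2 with a mean of at least 10 TPM, with no filter on low values or with quantile normalization, and 0 to 4 with a library left out. Of the 27 genes below WT in both mutant libraries, 17 passed the level filter when it was applied on the deposited scale. With a library left out the count was 29 to 67. The replicate block still called 1 gene in the mutant (dlx4b, limma, adjusted p = 0.0346) and left the 27 as they were. Same-numbered mutant and WT libraries deviated together (correlations across 6187 genes of 0.725 and 0.551), but with 2 shared numbers these do not establish pairing. Some of these directions were fixed in advance. A higher minimum, fold or pseudocount can only lower the count past the fold, and a lower setting can only raise it. For genes still tested, leaving a library out can only raise the 109 and the 27. The cause of the other shifts was not tested, apart from the stricter limits on the deposited scale.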

Other observations

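The genes in this paragraph belong to no list and were picked because they were past the fold, so they give no share of any pathway. Besides cyp51 and insig1, the sterol synthesis genes tm7sf2 (15.8 TPM with Edn1, 4.53 TPM with Gal4) and fdps (17.2 and 7.53 TPM) were higher past the fold. The edn1-/- libraries held 2.49 and 5.57 TPM of tm7sf2 and 12 and 11.4 TPM of fdps. The WT libraries held 2.85, 2.51 and 2.73 TPM of tm7sf2 and 10.8, 13.6 and 10.5 TPM of fdps, so neither was lower than WT in both mutant libraries. The cytokine feedback genes socs3b (294 and 146 TPM) and cish (137 and 58.7 TPM), the cytokine receptor gene lifrb (21.3 and 6.47 TPM) and the leptin gene lepa (39.9 and 15.9 TPM) were also higher past the fold. In WT replicate 2 lepa reached 234 TPM, and it was at 8.27 and 14 TPM in the other two. The connective tissue growth factor gene ctgfa (807 and 344 TPM), a paralog of ctgfb, and amotl2b, an angiomotin family gene (41.7 and 17.1 TPM), were past the fold, each by more than its own range over WT.

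Both heat-shock libraries shared features that set them apart from WT. Skeletal muscle genes summed to 138 TPM with Edn1 and 105 TPM with Gal4, against 1702, 1234 and 3314 TPM in WT. The edn1-/- libraries held 386 and 179 TPM, also below all WT libraries, so low muscle genes were not particular to the heat-shock pair. The interferon-stimulated gene isg15 stood at 33.6 and 38.9 TPM, against 0.902, 0.853 and 1.97 TPM in WT. The Iroquois gene irx1b, which belongs to no list and was picked after its values were seen, stood at 6.37 and 14.3 TPM. WT libraries held 47.3, 98.9 and 122 TPM of it. Both heat-shock libraries were thus below WT, but irx1b also differed within the pair, lower past the fold with Edn1. Heat shock, transgene background and library preparation cannot be told apart in these differences.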
